A study of Mus musculus with 5 samples.

Results

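Iron handling in lesion microglia and monocytes was read from 10 genes for iron uptake, iron storage and heme breakdown: the ferritin chains Fth1 and Ftl1, the iron exporter Slc40a1, heme oxygenase Hmox1, the transferrin receptor Tfrc, the iron transporters Slc11a1 and Slc11a2, the ferritin receptor Ncoa4, and the iron sensors Ireb2 and Aco1. Members were taken by gene symbol from the 49671 genes of the FPKM table and matched by gene identifier to the count table, where all 10 were found. FPKM is the read pairs of a gene per kilobase, scaled to the library total, and CPM is the same without the length, so levels of different genes were compared by FPKM only.

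The cells came from the corpus callosum of 10-week-old male wild-type C57BL/6J mice, 10 days post lesion (dpl), after 2 µl of 1% lysolecithin (LPC), a detergent that strips myelin, had been injected there. CD11b+ Ly6G- CD3- cells were sorted by FACS into CD45lo microglia (3 libraries) and CD45hi cells (2 libraries), which the labels call monocyte-derived macrophages and the study calls monocytes. Every library carried the lesion, so no unlesioned level was measured, and the gates hold whatever cells passed them. RNA was amplified from an ultra-low input. The study reports a far lower average cell yield per mouse for monocytes than for microglia, and less RNA sequenced. The libraries of a group come from separate mice according to the study, and whether a microglia and a monocyte library share a mouse is not given in the sources used here.

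Iron reaches myeloid cells bound to transferrin, through the transferrin receptor, or inside engulfed cells and debris, whose heme is opened by heme oxygenase to release iron. Slc11a1 and Slc11a2 move iron out of phagosomes and endosomes, ferritin stores it in a shell of heavy and light chains, Ncoa4 carries ferritin to the lysosome to free its iron again, and ferroportin, encoded by Slc40a1, is the exporter. The products of Aco1 and Ireb2 are the iron regulatory proteins, which bind a short hairpin in messenger RNAs, the iron-responsive element. Bound in a 5′ UTR the proteins block translation, so that protein can change without a change in RNA. Bound in a 3′ UTR they protect the messenger from decay. In the lesion, myelin and iron-rich oligodendrocyte debris are cleared by microglia and recruited monocytes.

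The hairpins tie 4 of the members together by sequence, apart from any level. The pattern searched was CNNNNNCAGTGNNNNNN on the transcript strand only, with the 5 bases before the loop able to pair with the last 5, G with T included. It was found in annotated UTRs (GENCODE vM21, GRCm38) of Fth1, Ftl1, Slc40a1 and Tfrc, against 0.155% of the 20062 genes with a 5′ UTR and 0.618% of the 20874 genes with a 3′ UTR. Each window of 30 bases lies within 1 exon and is printed as DNA, 5′ to 3′ on the transcript, with the CAGTG of the loop in capitals. In Fth1 the element is in the 5′ UTR (chr19:9982732-9982761, plus strand), in Ftl1 in the 5′ UTR (chr7:45459778-45459807, minus strand), and in Slc40a1 in the 5′ UTR (chr1:45925464-45925493, minus strand).
Fth1 5′ UTR: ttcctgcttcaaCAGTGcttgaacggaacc
Ftl1 5′ UTR: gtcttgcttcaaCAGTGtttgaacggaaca
Slc40a1 5′ UTR: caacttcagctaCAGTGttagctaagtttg
The heavy and light chain elements have the same stem letters on both sides of the loop, while the exporter's stem is spelled differently.

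The 3′ UTR of Tfrc held 4 such elements on the plus strand, at chr16:32631219-32631248, chr16:32631598-32631627, chr16:32631663-32631692 and chr16:32631710-32631739.
Tfrc element 1: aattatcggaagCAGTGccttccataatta
Tfrc element 2: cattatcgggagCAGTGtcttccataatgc
Tfrc element 3: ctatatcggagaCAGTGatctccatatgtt
Tfrc element 4: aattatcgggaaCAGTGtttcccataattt
These matches describe letters, and whether an iron regulatory protein bound there was not measured.

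Depth differed strongly between the libraries, which bounds every value that follows. The 3 microglia libraries held 5890081 to 9021700 counts and 5994 to 11653 genes with 10 or more counts, while monocyte library 1 held 3417150 counts and 1392 such genes, and monocyte library 2 held 6514611 and 4230. A count of 0 allows up to 3 counts, which was 0.333 to 0.509 CPM in microglia and 0.878 and 0.461 CPM in monocyte libraries 1 and 2. Of the members, 10, 10 and 8 had 10 or more counts in microglia libraries 1 to 3, against 2 and 7 in monocyte libraries 1 and 2. The cell labels were checked against marker lists: all 7 microglia markers had counts in each of the 5 libraries, summing to 6032 to 11259 CPM in microglia and to 1619 and 3136 CPM in monocyte libraries 1 and 2. Of 6 monocyte markers, Ccr2, Ly6c2, Plac8 and Chil3 had 0 counts in both monocyte libraries, and the list summed to 2343 CPM in the first, all of it Vcan, and to 0.921 CPM in the second. The data therefore do not show the defining monocyte genes in the libraries labelled monocyte, and the name is kept here only as the label of the CD45hi gate. Of 6 endothelial markers, 2 to 4 had counts in a library, summing to 492 CPM in monocyte library 2, nearly all Flt1, and to 1.36 to 82.8 CPM elsewhere. The 6 oligodendrocyte markers summed to 9.85 to 164 CPM in microglia and to at most 1.76 CPM in monocytes, and the part of other cells in the values was not tested.

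By FPKM the ferritin heavy chain stood above every other member in all 5 libraries. In microglia the mean levels ran in the order Fth1, Ftl1, Slc11a1, Hmox1, Tfrc, Slc11a2, Ireb2, Ncoa4, Slc40a1 and Aco1. Of the 9 pairs of neighbours in that order, 3 did not overlap over the microglia libraries (Fth1 above Ftl1, Ncoa4 above Slc40a1, Slc40a1 above Aco1), and the other 6 pairs did. In monocyte library 2 the first 3 places were the same, and Tfrc came next.

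**Figure D1:**
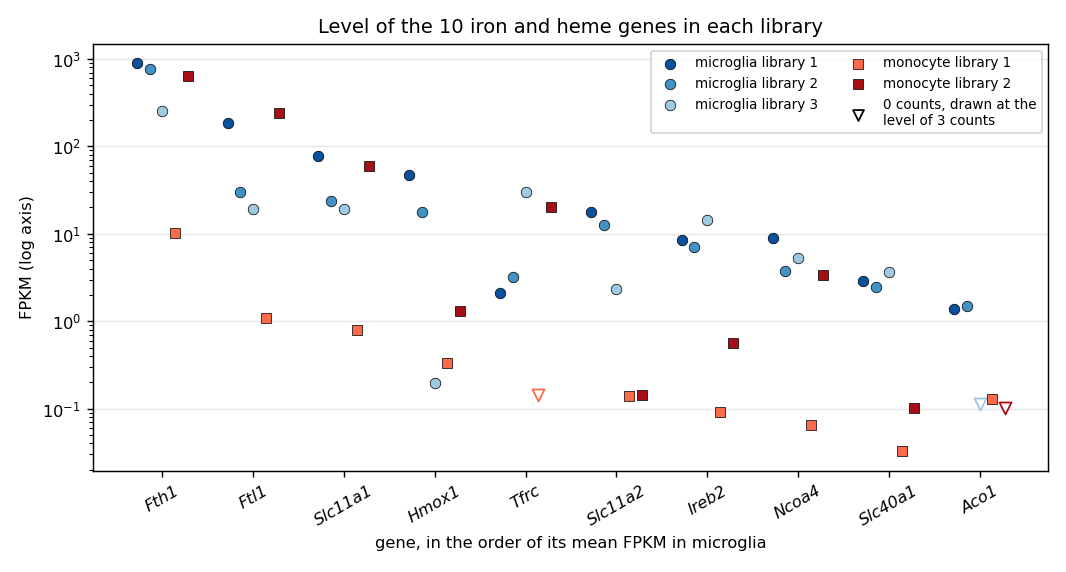
FPKM (log axis) of each of the 10 genes in the 3 microglia libraries (circles) and 2 monocyte libraries (squares), with counts of 0 drawn as open triangles at the level of 3 counts. Fth1 is on top in every library, monocyte library 1 is lowest for 8 of the 10 genes, and monocyte library 2 lies among the microglia for Fth1, Slc11a1 and Tfrc.

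In storage, Fth1, whose heavy chain oxidizes iron for deposition, measured 891, 774 and 255 FPKM in microglia libraries 1 to 3, and 10.1 and 642 FPKM in monocyte libraries 1 and 2. Monocyte library 2 lay inside the microglia range and monocyte library 1 far under it. Ftl1, the light chain that helps the iron core form, measured 187, 29.9 and 19.1 FPKM in microglia and 1.09 and 243 FPKM in monocytes. Monocyte library 2 was therefore the highest of the 5 libraries for the light chain and monocyte library 1 the lowest.

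The heavy and light chains together took 0.102%, 0.0711% and 0.0246% of all counts in microglia libraries 1 to 3 (exact binomial 95% intervals 0.0998 to 0.105, 0.0693 to 0.0728 and 0.0234 to 0.0259, for counting error only). In monocytes the share was 0.00102% (0.000713 to 0.00142) and 0.0881% (0.0858 to 0.0904). The group means, 0.0660% ± 0.0391 (SD, n = 3) and 0.0446% ± 0.0616 (SD, n = 2), differed by less than the spread between libraries (exact permutation test, two-sided p = 0.6, where 3 against 2 cannot go under 0.1). Without monocyte library 1 the difference turned, from -0.0214 to 0.0221 percentage points.

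Ferritin has copies elsewhere in the genome, and reads assigned to them had to be followed. Ftl1-ps1, annotated as protein coding on chromosome 13, is 99.6% identical to Ftl1 over 910 aligned bases, and had 39, 3 and 0 counts in microglia and 0 and 58 in monocytes. Reads from the parent and this copy cannot be told apart over most of their length, so the level of Ftl1 is uncertain to the extent that reads were split or left out. Fth-ps2, a processed pseudogene on chromosome 6, is 81.1% identical to Fth1 over 550 aligned bases, with 43, 158 and 811 counts in microglia and 1 and 0 in monocytes.

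Per length, Fth-ps2 stood at 12.6 and 33.9 FPKM in microglia libraries 1 and 2, and at 267 FPKM in microglia library 3, beside 255 FPKM for Fth1 itself in that library. The pseudogene row was thus as high as its parent in the microglia library with the lowest Fth1. Fth-ps3 on chromosome 8, which is 88.0% identical to Fth1 over 358 bases, had 10, 1 and 0 counts in microglia and none in monocytes.

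**Figure D2:**
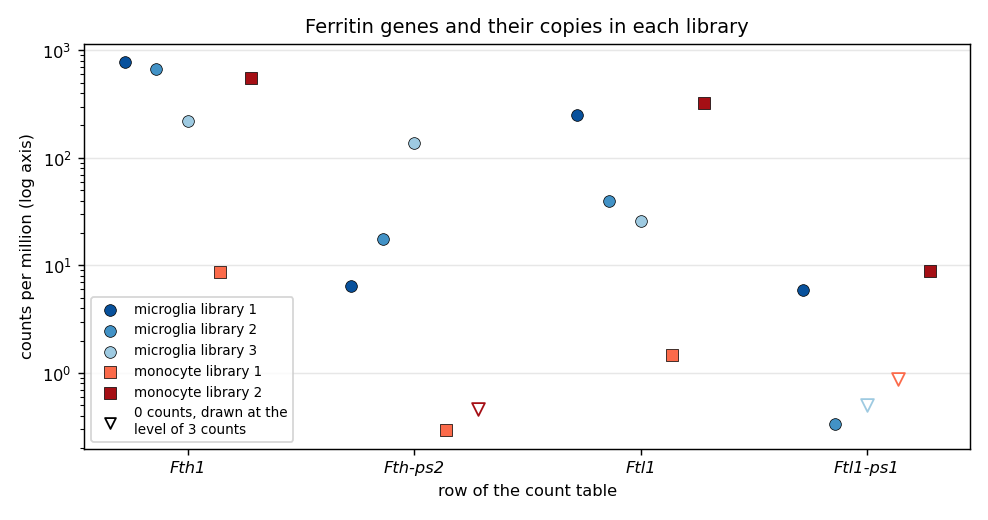
CPM (log axis) of Fth1, Ftl1 and their copies Fth-ps2 and Ftl1-ps1 in each library, with counts of 0 as open triangles at the level of 3 counts. Fth-ps2 is highest in microglia library 3, where Fth1 and Ftl1 are at their lowest among the microglia, and both copies are at or near 0 in monocyte library 1.

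Ncoa4, which delivers ferritin to the lysosome, measured 8.94, 3.76 and 5.34 FPKM in microglia and 0.0657 and 3.38 FPKM in monocytes. Both monocyte libraries lay under all 3 microglia libraries, but monocyte library 2 missed the lowest microglia library by little, 15.0 against 16.7 CPM.

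Among uptake and transport genes, monocyte library 2 lay inside the microglia range for Tfrc and Slc11a1 and under it for Slc11a2. Tfrc, the receptor for iron-loaded transferrin, measured 2.10, 3.23 and 30.1 FPKM in microglia and 0 and 20.5 FPKM in monocytes. Microglia library 3 was 14.4-fold above microglia library 1 (95% counting interval 11.5 to 18.1), and monocyte library 2 lay between them. The 0 counts in monocyte library 1 allow up to 0.878 CPM, and monocyte library 2, with 126 CPM, lay 144-fold above that level. The lower 95% limit of the ratio was 117, for counting error only.

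Slc11a1 (NRAMP1), the phagosomal metal transporter of myeloid cells, measured 77.5, 23.8 and 19.1 FPKM in microglia and 0.790 and 59.4 FPKM in monocytes. The groups overlapped, with monocyte library 2 second of the 5. Its relative Slc11a2 (DMT1), which moves iron out of endosomes, measured 17.6, 12.7 and 2.32 FPKM in microglia and 0.138 and 0.145 FPKM in monocytes, from 3 and 6 counts. Here both monocyte libraries lay under all microglia libraries.

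Export, through Slc40a1, had the narrowest spread of any member in microglia. Slc40a1 measured 2.85, 2.49 and 3.66 FPKM (mean 3.00 ± 0.60, SD, n = 3), with the highest library 1.47-fold above the lowest (95% counting interval 1.20 to 1.80). In monocytes it measured 0.0325 and 0.102 FPKM, from 1 and 6 counts, under every microglia library.

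Heme breakdown had the widest spread among the microglia of the members with counts in all 3. Hmox1, which opens the heme ring, measured 47.5, 17.7 and 0.194 FPKM in microglia and 0.334 and 1.31 FPKM in monocytes. Microglia library 3 had 2 counts, and microglia library 1 was 245-fold above it (95% counting interval 67.5 to 2029), so that the lowest of the 5 values was a microglia library. Defining red cell genes were absent or nearly so: Hba-a2, Hbb-bs and Hbb-bt had 0 counts in all 5 libraries, and the 7 erythroid markers summed to at most 9.09 CPM, nearly all of it Alas2 in microglia library 2.

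The iron sensors went separate ways in microglia library 3. Ireb2, encoding iron regulatory protein 2, measured 8.41, 7.02 and 14.3 FPKM in microglia and 0.0926 and 0.567 FPKM in monocytes, without overlap. Aco1, encoding iron regulatory protein 1, measured 1.37, 1.5 and 0 FPKM in microglia and 0.130 and 0 FPKM in monocytes. With 61 counts in microglia library 2 and 0 in microglia library 3, it was at least 13.3-fold higher in the former, and at 2 and 0 counts in monocytes it was not detectable there beyond the limit that a count of 0 allows.

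Scored by CPM, the groups did not overlap for Slc40a1, Slc11a2, Ncoa4 and Ireb2, each lower in monocytes, and no member was higher without overlap. That is 4 of 10, against 48% of the 10105 genes tested (0.673% for higher), a share near that of all genes. After scaling by TMM factors (trimmed mean of M values), only Slc40a1 and Ireb2 stayed without overlap, against 21.5% of all genes (4.91% for higher). Without microglia library 3 the count was 7 (75.5% of all genes), without monocyte library 2 it was 8 (71.4%), and without monocyte library 1 it was 4 (55.2%), with 1 member higher (12.3%). In these bulk samples, less RNA of a gene per cell and fewer cells that carry it cannot be told apart.

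Tested over all genes with edgeR's quasi-likelihood test, no member passed. All 10 passed the filter on low counts, and 0 of 10 were called at an adjusted p under 0.05 in either direction, against 6 of 10105 genes higher in monocytes (0.0594%) and 0% lower. At an unadjusted p under 0.05 edgeR also gave 0 of 10, against 8.52% of all genes higher and 3.35% lower. limma-voom called 0 members (0.317% of all genes higher, 0% lower). DESeq2 called 0 of the 7 members to which it gave an adjusted p (19.5% of 5056 genes higher, 1.98% lower), and at an unadjusted p under 0.05 it had 1 of 10, Ftl1, higher in monocytes (15.4% of 9953 genes higher, 5.55% lower). The common dispersion over genes was 1.57. The standard errors (SE) given for edgeR were derived, as the absolute log2 fold change over the square root of the test's F. For the members they ran from 1.82 to 2.63 on the log2 scale. The SE given for DESeq2 is its own, so the 2 are not the same statistic.

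The member closest to a call was Ftl1, with a log2 fold change, monocytes over microglia, of 3.09 (SE 1.95) and an edgeR adjusted p of 0.508. DESeq2 gave Ftl1 4.21 (SE 1.67) and an adjusted p of 0.0529, the lowest over the alternatives, which reached 1.00 at the other end. The direction rested on monocyte library 2, without which the log2 fold change was -1.97. Fth1 stood at 1.37 (SE 1.98, edgeR adjusted p = 0.735), and at -2.00 without monocyte library 2.

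On the other side Slc40a1 stood at -2.44 (SE 2.30, edgeR adjusted p = 0.603), Slc11a2 at -2.23 (SE 2.09, adjusted p = 0.602) and Ireb2 at -2.18 (SE 2.00, adjusted p = 0.595). These 3 were negative in the edgeR fit and in all 12 alternative fits, at -5.39 to -1.91, -6.23 to -1.86 and -4.89 to -1.31. Most genes were negative as well: 6434 of 10105 with edgeR, 5817 with limma-voom and 8644 with library totals. The fits draw on the same 5 libraries, and how many genes were negative in every fit was not counted. Slc11a1 stood at 1.97, Tfrc at 1.39, Hmox1 at -1.21, Aco1 at 0.84 and Ncoa4 at 0.51, with edgeR adjusted p from 0.608 to 0.902, and each of these 5 changed sign under at least 1 alternative.

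Scaling moved the level against which every gene is read, and individual members by unequal amounts. The TMM factors were 3.76, 2.73 and 1.71 in microglia libraries 1 to 3, and 0.0929 and 0.611 in monocyte libraries 1 and 2. Under TMM, Ncoa4 stood at 0.51, although both monocyte libraries lay under every microglia library by CPM. Fth1 stood at 1.37, with a mean of 640 FPKM in microglia and 326 FPKM in monocytes. Over the 10105 genes the log2 fold changes had a median of -1.11 with TMM, -3.07 with TMM factors taken from the 982 genes with 10 counts in every library, and -4.73 with library totals. The median of the members was 0.68, -1.26 and -2.85 under the same scalings. Relative to the median of all genes, Ftl1 lay 4.19, 4.53 and 5.35 higher, Fth1 2.48, 2.83 and 3.75 higher, and Slc11a1 3.08, 3.46 and 4.30 higher. Tfrc, Ncoa4 and Aco1 also lay above it under each scaling. Ftl1, Fth1 and Slc11a1 have the highest mean FPKM of the members, and no median over genes at a like level was taken. Slc40a1 lay at -1.33, -1.04 and -0.66 and Slc11a2 at -1.12, -1.34 and -1.49 on that scale, so both stayed under the median, while the sign of Fth1, Slc11a1, Tfrc, Ncoa4 and Aco1 against 0 did not under library totals.

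**Figure D3:**
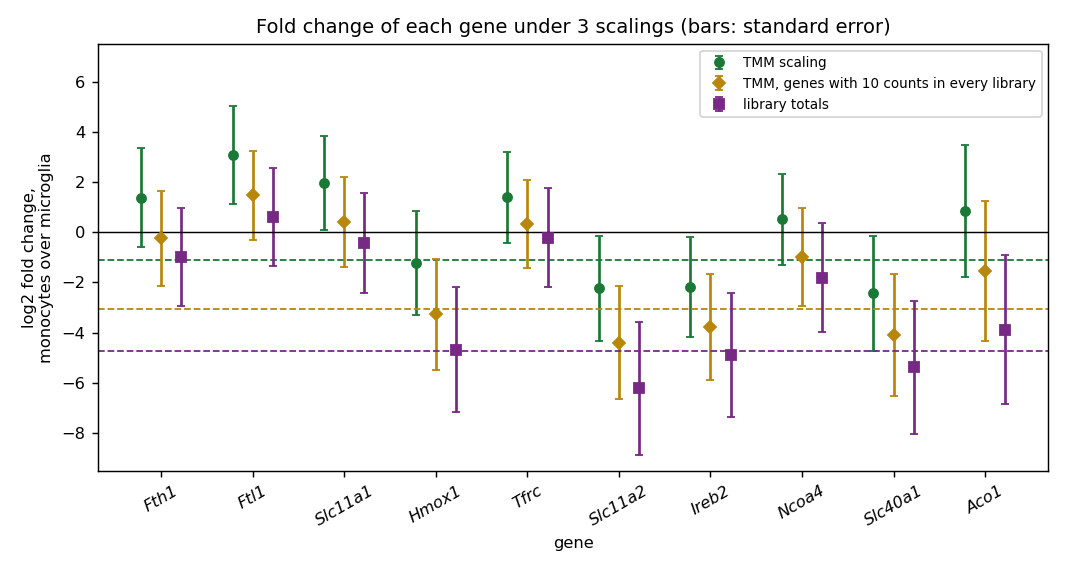
Log2 fold change of each gene, monocytes over microglia, under TMM, TMM from genes with 10 counts in every library, and library totals. Bars are the standard error, derived from edgeR's F test. Dashed lines mark the median of all genes tested (-1.11, -3.07 and -4.73). Ftl1, Fth1, Slc11a1, Tfrc, Ncoa4 and Aco1 lie above the median line under each scaling. Slc40a1, Slc11a2 and Ireb2 lie below it, and Hmox1 lies close to it.

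A ratio of 2 genes within a library does not depend on scaling, and 4 ratios were compared. By FPKM, Fth1 exceeded Ftl1 in every library, with ratios of 4.77, 25.9 and 13.3 in microglia and 9.28 and 2.64 in monocytes, and the ratio in monocyte library 2 (95% counting interval 2.51 to 2.79) was the lowest. The FPKM ratio of Slc11a1 to Slc11a2 was 4.4, 1.87 and 8.2 in microglia and 5.72 (1.47 to 32.3) in monocyte library 1, but 409.6 (188 to 1118) in monocyte library 2. For Slc11a1 over Slc11a2, monocyte library 1 lay inside the microglia range and monocyte library 2 far outside it.

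The FPKM ratio of Slc40a1 to Tfrc was 1.36, 0.771 and 0.122 in microglia, could not be formed in monocyte library 1, where Tfrc had 0 counts, and was 0.00500 (0.00183 to 0.0109) in monocyte library 2. The FPKM ratio of Ireb2 to Aco1 was 6.12 and 4.67 in microglia libraries 1 and 2 and 0.711 (0.0815 to 8.52) in monocyte library 1, and Aco1 had 0 counts in the other 2 libraries. Gene length cancels in the difference between groups, which was taken on log2 ratios of counts with 0.5 added to each. The monocyte mean minus the microglia mean was -1.31 for Fth1 over Ftl1, -2.25 for Slc40a1 over Tfrc, -2.55 for Ireb2 over Aco1 and 3.44 for Slc11a1 over Slc11a2. The groups overlapped in each of the 4 ratios. Exact permutation tests gave two-sided p from 0.4 to 0.8, each 0.8 after Benjamini-Hochberg adjustment over the 4. With 3 against 2 libraries p cannot go under 0.1, so these tests could not have called a difference. Slc40a1 over Tfrc turned to 2.04 without monocyte library 2, and Ireb2 over Aco1 to 0.28 without monocyte library 1. Both differences depend on the 0.5 added where a gene had 0 counts. For Slc40a1 over Tfrc, monocyte library 1 entered at 1.58, from 1 and 0 counts. For Ireb2 over Aco1, microglia library 3 entered at 10.6 and monocyte library 2 at 6.15, each with 0 counts of Aco1.

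**Figure D4:**
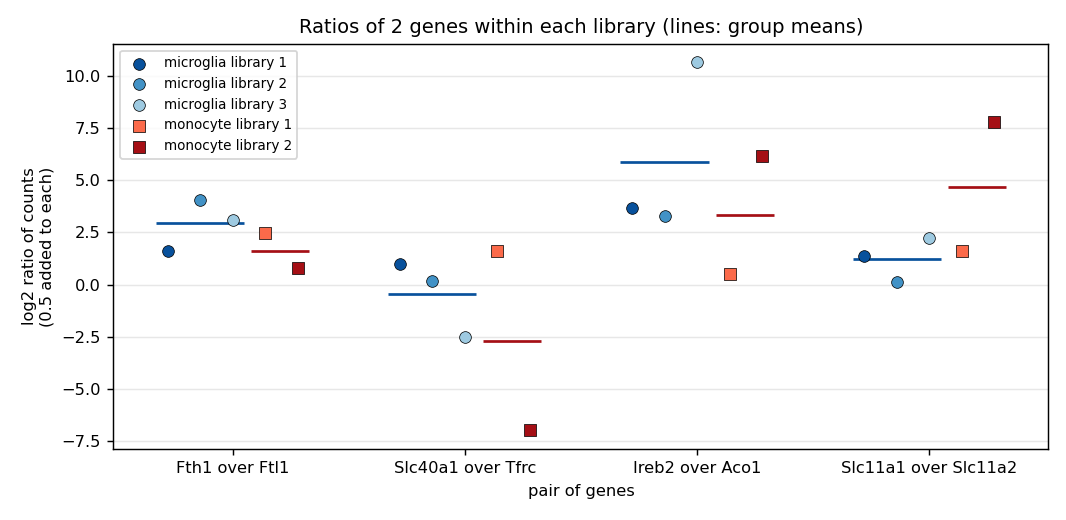
Log2 ratio of counts (0.5 added to each, not divided by gene length) for 4 pairs of genes in each library, to be compared between libraries within a pair, with lines at the group means. The groups overlap for Slc40a1 over Tfrc, Ireb2 over Aco1, Slc11a1 over Slc11a2 and Fth1 over Ftl1, and monocyte library 2 lies far from monocyte library 1 in the first 3 of these.

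Between the 2 monocyte libraries, several members differed by far more than their counting error. By CPM, monocyte library 2 was above monocyte library 1 by 222-fold for Ftl1 (95% counting interval 95.1 to 685), 75.2-fold for Slc11a1 (40.8 to 157), 63.3-fold for Fth1 (44.3 to 94.0) and 51.4-fold for Ncoa4 (9.01 to 2051). For Ireb2 the ratio was 6.12 (1.93 to 31.1), for Hmox1 3.93 (0.915 to 35.5), for Slc40a1 3.15 (0.382 to 145) and for Slc11a2 1.05 (0.224 to 6.48). The median of the same ratio over the 5953 genes tested with a count in both was 2.10. Only 1392 genes reached 10 counts in monocyte library 1, so most of the 5953 had few counts there. No median over genes at a like level was taken. Monocyte library 1 had 39.9% of its counts on mitochondrially encoded genes against 28.5% in monocyte library 2 and 11.1% to 39.0% in microglia, and the part of library quality in these ratios was not tested.

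**Figure D5:**
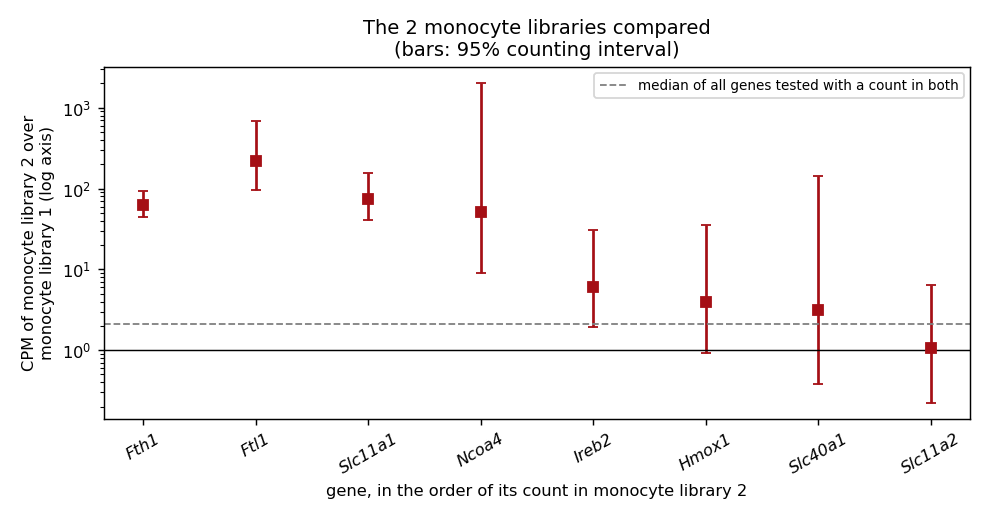
CPM of monocyte library 2 over monocyte library 1 (log axis) with 95% counting intervals for the 8 members with counts in both. The dashed line is the median of 5953 genes (2.10), most of which had few counts in monocyte library 1. Fth1, Ftl1, Slc11a1 and Ncoa4 lie above the line with their whole intervals, and the intervals of the other 4 cross it.

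The wider list of 49 iron and heme genes had 39 genes with a count and 30 that were tested. edgeR called 0 of 30 in either direction at an adjusted p under 0.05, with 4 higher and 2 lower at an unadjusted p under 0.05, and limma-voom called 0. DESeq2 called 4 of the 20 with an adjusted p higher in monocytes, which is 20% beside 19.5% of all genes. The 4 were Alas1, Cisd2, Hfe and Slc39a14, named after their values were seen except Alas1. By CPM, 12 of the 30 were lower in both monocyte libraries without overlap and 0 higher, beside 48% and 0.673% of all genes. After TMM factors 7 were lower and 3 higher, beside 21.5% and 4.91%, and the 3 were Picalm, Lrp1 and Iscu, the last named after its values were seen.

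Of the uptake genes, 6 of 11 were tested. Picalm, a clathrin adaptor needed to internalize the transferrin receptor, measured 38.5, 48.3 and 83.6 FPKM in microglia and 13.2 and 44.2 FPKM in monocytes. Mcoln1, a lysosomal cation channel that releases iron, measured 4.71, 4.81 and 40.9 FPKM in microglia and 0.0387 and 2.86 FPKM in monocytes. Mcoln1 was, like Tfrc, highest in microglia library 3. Hfe, a partner of the transferrin receptor, had 49, 139 and 7 counts in microglia and 0 and 539 in monocytes, and the zinc and iron importer Slc39a14 had 362, 200 and 3 and then 4 and 843. For both, nearly all monocyte counts came from library 2.

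Of the heme handling genes, 4 of 11 were tested. Lrp1, which takes up hemopexin-bound heme among many ligands, measured 194, 38.3 and 60.2 FPKM in microglia and 13.99 and 57.4 FPKM in monocytes. Hmox2, the constitutive heme oxygenase, measured 4.96, 2.20 and 50.8 FPKM in microglia and 31.3 and 0.138 FPKM in monocytes. In microglia library 3 and in monocyte library 1, where Hmox1 had 2 counts each, Hmox2 was thus at its highest, with 663 and 237 counts. The hemoglobin receptor Cd163 had 1 count in all 5 libraries.

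In export and oxidation only Cp was tested, the copper oxidase that readies exported iron for transferrin, at 2.49, 2.72 and 38.3 FPKM in microglia and 0 and 0.0642 FPKM in monocytes. Its edgeR log2 fold change was -6.62 (SE 2.65, adjusted p = 0.244, the value depending on the count added to a near-empty group). Heph, a related oxidase, had 0 counts throughout. Among the chaperones, Pcbp1, which hands iron to ferritin, did not overlap, at 17.7, 6.24 and 2.04 FPKM in microglia and 0.480 and 0.252 FPKM in monocytes, while Pcbp2 overlapped at 15.6, 7.19 and 5.45 FPKM and 0 and 21.1 FPKM.

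All 5 regulators were tested. Nfe2l2 (NRF2), a transcription factor that drives Hmox1 and the ferritin genes, measured 93.6, 149 and 315 FPKM in microglia and 2.00 and 333 FPKM in monocytes. Its level in microglia was highest in library 3, where Hmox1 was lowest. Hif1a measured 29.7, 51.2 and 6.36 FPKM in microglia and 0.496 and 9.16 FPKM in monocytes.

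Of 16 genes for mitochondrial iron, iron-sulfur clusters and heme synthesis, 12 were tested. Alas1, the first enzyme of heme synthesis, measured 31.8, 3.24 and 7.04 FPKM in microglia and 0.456 and 53.3 FPKM in monocytes. Fech, the last, which inserts iron into the ring, measured 14.03, 9.21 and 61.4 FPKM in microglia and 0 and 0.476 FPKM in monocytes. The highest library thus differed between them, and the lowest was monocyte library 1 for both. Cisd2, an iron-sulfur protein, had 709, 405 and 64 counts in microglia and 968 and 4 in monocytes, with its high value in the other monocyte library.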

How the data were processed

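RNA of FACS-sorted cells was amplified from ultra-low input and sequenced by the authors, who aligned read pairs to GRCm38 (STAR 2.5.2a, according to the submitters' processing notes) and counted pairs per gene on GENCODE vM12. The deposited counts are raw. The deposited FPKM were made by the authors from those counts, per kilobase of gene and scaled to the library total. How read pairs with several alignments were treated is not given in the sources used here. Deposited log2 CPM and the authors' own fold changes and p-values were not used, and neither were 4 columns of other samples in each of 2 tables.

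Counts of 24984 genes, 20182 with a count, were tested with edgeR 4.0.16 (R 4.3.3): TMM, its expression filter by group, quasi-likelihood test, Benjamini-Hochberg over 10105 genes. limma 3.58.1 (voom, the study's own test), DESeq2 1.42.0, other scalings and filters, and leaving out each library were alternatives. The fitting code was also run on simulated counts with less spread between libraries than here. That run does not show how the fits perform on these data. Python 3.11.15 with scipy 1.17.1 gave exact tests and 95% exact intervals, matplotlib 3.10.9 the plots, and blastn 2.17.0 the alignments. Counts of 0 were taken to allow up to 3 counts. The wider list is textbook knowledge. Members and lists were chosen with earlier results of these data known. Besides every member, the text names genes of the wider list called by edgeR, the 2 per role with the highest FPKM averaged over the group means, ferritin pseudogenes with 10 or more counts, and defining markers with 0 counts. Hfe, Slc39a14, Cisd2, Iscu and Cd163 were added after their values were seen. Some items are not reported here.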

Additional observations from a re-analysis of the deposited data

How the results depend on the processing

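No paired analysis was run. Each library carries its own number, so the labels do not show whether a microglia and a monocyte library share a mouse. No member was called in any of the 12 alternative fits, and 100 of 118 recomputed fold changes of members kept their sign and stayed uncalled. With library totals the log2 fold change was -0.98 for Fth1, -0.21 for Tfrc, -0.43 for Slc11a1, -1.80 for Ncoa4 and -3.89 for Aco1, and the medians were -2.85 for the members and -2.46 for the wider list. With TMM factors from genes with 10 counts in every library it was -0.24 for Fth1, -0.99 for Ncoa4 and -1.53 for Aco1. Without a filter Aco1 was at -0.12, and limma-voom put Hmox1 at 0.15. The cause of these sign changes was not tested. Leaving out each library in turn gave -2.00 to 1.94 for Fth1, -1.97 to 3.78 for Ftl1, -12.28 to 4.26 for Tfrc, whose lowest value is a fit against 0 counts and no bound, -1.62 to 2.56 for Slc11a1, -2.66 to 0.97 for Ncoa4 and -7.48 to 1.23 for Aco1, which was not tested without microglia library 1 or 2. In the same runs the median was -2.11 to 0.15 for the members and -2.13 to 0.78 for the wider list, and 0 to 1 genes of the wider list were called higher, the 1 being Cisd2 without monocyte library 2. Members lower in every monocyte library that was kept numbered 4 to 8 and members higher 0 to 1. The same shares over all genes ran from 49.0% to 75.5% and from 0.782% to 12.3%. The 8 lower and the 1 higher came from runs that kept only 1 monocyte library. The difference was -6.54 to 2.04 for log2 Slc40a1 over Tfrc, -5.38 to 0.28 for log2 Ireb2 over Aco1, and -0.0650 to 0.0221 percentage points for the ferritin share. DESeq2 called 4 genes of the wider list higher, where edgeR called 0, and the cause was not tested. After TMM factors 2 members were lower without overlap. Genes called higher among all 10105 numbered 6 with edgeR, 987 with DESeq2, 32 with limma-voom, 7 with RLE factors, 3 with the TMM factors from genes with 10 counts in every library and 0 with library totals. DESeq2 also called 100 lower. With other filters the count was 70 without a filter and 14 with CPM above 1 in at least 2 libraries, and leaving out a library gave 0 to 343. Other pseudocounts, FPKM, added pseudogene reads and a total without mitochondrially encoded genes kept the sign of each ratio and of the ferritin share.

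Depth limits the low members most: in monocyte library 1 only Fth1 and Slc11a1 reached 10 counts, and Aco1 had at most 61 counts in any library.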
